A study of Canis lupus familiaris with 20 samples.

Results

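Macrophages and mammary cancer cells that had been grown together were compared after they were separated again. Each of 5 canine mammary cancer lines was kept for 72 h with macrophages (MQ). The 2 populations sorted from the same co-culture were then set against each other, gene by gene and line by line. CMT-U27 came from a simple carcinoma, CMT-U309 from a spindle-cell mammary tumour and P114 from an anaplastic cancer, while CMT-W1 and CMT-W2 were both adenocarcinoma lines. Values given as a list follow the order CMT-U27, CMT-U309, P114, CMT-W1, CMT-W2. The macrophages were CD64-positive monocytes sorted from the blood of healthy dogs and placed without added growth factors on cancer cells stained with the dye CMTMR. The age of the dogs, their number and whether cells of several dogs were pooled are not given in the sources used here. All cells grew in the same serum-containing medium. The co-cultures were detached with trypsin and sorted by flow cytometry into an unstained fraction, labelled macrophages, and a stained fraction, labelled cancer cells. The mono-cultures of both cell types did not pass through this sort.

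RNA was measured on 20 two-colour arrays, which carried co-cultured cells in one dye and mono-cultured cells of the same type in the other. The comparison used the 20 co-culture channels of 40 channels in all. They held 10 sorted populations, 5 of macrophages and 5 of cancer cells, each on 2 arrays with the dyes exchanged. The labels call the arrays of such a pair biological replicates while the study describes a dye-swap, so a pair counted as 1 replicate and n was 5 co-cultures. Each co-culture was of a different line, so the spread between replicates includes the differences between the tumours. How many macrophage mono-cultures were grown is not given in the sources used here, and the spread of the mono-culture comparison may be partly technical. Levels are log2 normalized signals, in which a difference of 1 is a 2-fold difference, and a positive difference means a higher signal in the macrophage-labelled fraction. Between 54.5% and 74.7% of the spots were well above background in the co-culture channel of the macrophage arrays, and between 51.0% and 96.3% in that of the cancer cell arrays (median 66.5% in both).

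Monocytes that leave the blood mature into macrophages, which take up debris and pathogens, present peptides on class II MHC molecules and release chemokines that draw in further leukocytes. Macrophages are known to be common in mammary tumours, where they exchange signals such as CCL2 and growth factors with the cancer cells. CD163, a scavenger receptor, C5AR1, a receptor of complement, and FCGR1A, the antibody receptor also called CD64 on which the monocytes had been sorted, are used as markers of the lineage. Mammary cancer cells are recognised by epithelial genes such as CLDN3, OCLN and MUC1, and spindle-shaped tumour cells by genes of matrix and membrane caveolae.

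The labels of the fractions were checked first against genes that were at least 16-fold apart between the mono-cultures of the other 4 lines. These genes were chosen on arrays other than those on which they were read. Macrophage-specific genes (629 to 745 per line) had median levels of 27.6%, 39.1%, 11%, 16.2% and 22.9% of the mono-cultured macrophages in the macrophage-labelled fractions. The cancer-labelled fractions stood at 78.4%, 19.9%, 11%, 5.27% and 16.6%, while the mono-cultured lines had 5.78%, 3.45%, 2.16%, 2.08% and 1.98%. In the CMT-U27 co-culture these genes were thus higher in the fraction labelled cancer cells, and only 14.9% of 745 genes were higher in the fraction labelled macrophages. In the other co-cultures the share higher in the macrophage-labelled fraction was 96.0%, 51.3%, 71.4% and 58.9%.

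**Figure D1:**
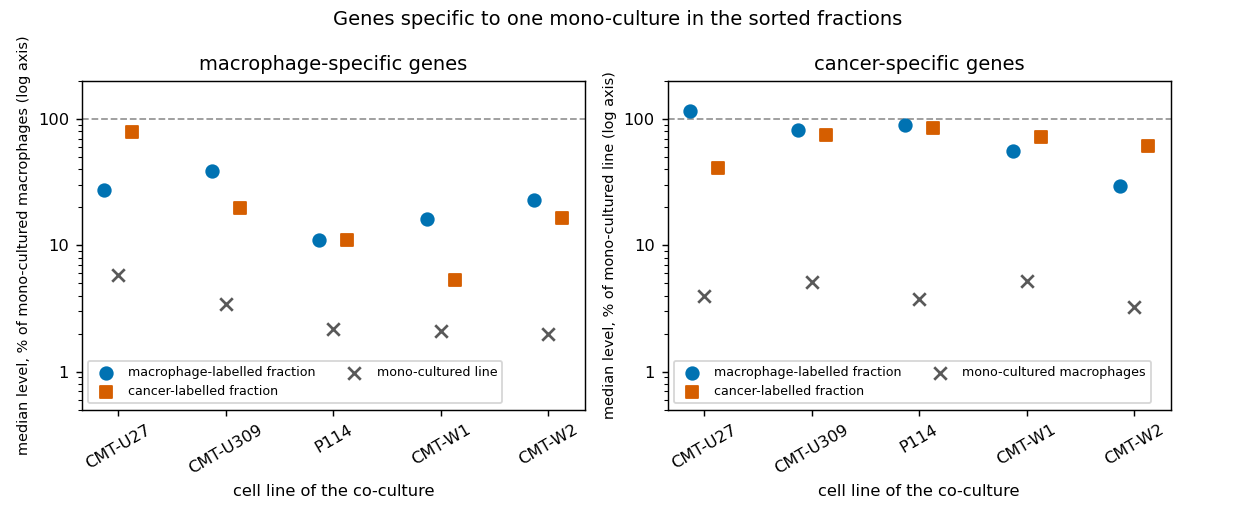
Median level of genes specific to one mono-culture in the 2 sorted fractions of each co-culture, in percent of the mono-culture that defines them (log axis; no error bars, each point is 1 population). The CMT-U27 fraction labelled cancer cells had 78.4% of the macrophage-specific level and the fraction labelled macrophages 27.6%, and in P114 both fractions had 11%.

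Cancer-specific genes gave the same picture from the other side, except in CMT-U309. Their median level, relative to the mono-cultured line, was 116%, 81.9%, 89.4%, 56.0% and 29.7% in the macrophage-labelled fractions and 40.6%, 74.3%, 85.4%, 72.2% and 61.6% in the cancer-labelled fractions. Mono-cultured macrophages had 3.23% to 5.24%. The plot of these medians shows that every fraction held both macrophage-specific and cancer-specific signal above the level of the opposite mono-culture. For the cancer-specific genes the order of the fractions was against the labels in CMT-U27, nearly level in P114 and CMT-U309, and with the labels in CMT-W1 and CMT-W2. The populations are therefore called the macrophage-labelled and the cancer-labelled fraction throughout, and main counts are also given without CMT-U27. The study describes a check of the sorted tubes by cytometry and fluorescence microscopy. Each difference takes its sign from the deposited labels, and an exchange of the 2 CMT-U27 fractions, which was not tested, would turn the sign of every CMT-U27 difference. In such bulk samples, fewer cells of a type and less RNA per cell cannot be told apart.

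The same was seen across all 23734 genes tested. The Pearson correlation between the fractions of one co-culture was 0.94, 0.98, 0.98, 0.83 and 0.89, against 0.76, 0.76, 0.74, 0.55 and 0.68 between the mono-cultures of the same arrays. Fractions of different co-cultures, of the same label, correlated at 0.53 to 0.93. The CMT-U27 fraction labelled cancer cells was closer to mono-cultured macrophages (r = 0.90) than to its own mono-cultured line (r = 0.83), while the fraction labelled macrophages was closer to the line (0.86) than to macrophages (0.81). The other 4 cancer-labelled fractions correlated more with their line (r = 0.87, 0.92, 0.95 and 0.92) than with mono-cultured macrophages (0.81, 0.78, 0.59 and 0.79). The macrophage-labelled fraction of P114 was also closer to the line (0.92) than to mono-cultured macrophages (0.80), by a wider margin than that of CMT-U27. In CMT-U309, CMT-W1 and CMT-W2 it correlated at 0.83, 0.79 and 0.83 with mono-cultured macrophages and at 0.82, 0.79 and 0.81 with the line. In CMT-U27, CMT-U309 and P114 each fraction was closer to the other fraction of its co-culture than to either mono-culture. Probes keep their own brightness on every array, which lifts all of these correlations; genes are not independent replicates and no p is given.

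Which genes separated the 2 fractions in all co-cultures was asked with a limma fit paired by line. It called 1 of 23734 genes at a Benjamini-Hochberg adjusted p under 0.05 (0.00421%). That gene, listed as ENSCAFT00000018369 and without a symbol in the table used here, had log2 levels of 13.79, 13.48, 13.56, 13.27 and 14.24 in the macrophage-labelled fractions. In the cancer-labelled fractions its levels were 8.70, 9.27, 8.86, 8.65 and 9.74. All macrophage-labelled values lay above all cancer-labelled values, by 4.21 to 5.08 within the pairs, with a mean difference of 4.62 ± 0.32 (SD, n = 5; limma adjusted p = 0.001889). It was also called without CMT-U27, where it was again the single gene to pass. With scan day as a term it had 5.08 and was not called (adjusted p = 0.6208), and scan day followed the label in 4 of 5 co-cultures. In the CMT-U27 co-culture the gene kept its direction, while most macrophage-specific genes were reversed. In mono-culture it was 8.39 higher in macrophages.

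At an unadjusted p under 0.05, 2796 genes were counted (11.8%), 2102 of them higher (8.86%) and 694 lower (2.92%) in the macrophage-labelled fractions. Scaling the channels to their 75th percentile turned this split to 1607 higher and 1816 lower. Without CMT-U27 the numbers were 2400 higher (10.1%) and 576 lower (2.43%). Leaving out CMT-W2 cut them to 788 higher and 254 lower, and leaving out CMT-W1 to 1576 and 401. A difference had the same sign in all 5 pairs for 1953 genes that were higher (8.23%) and 1089 that were lower (4.59%). The 5 macrophage-labelled values lay wholly above the 5 cancer-labelled values for 90 genes (0.379%) and wholly below for 32 (0.135%). The half-width of the 95% interval of a gene's difference had a median of 0.79 on the log2 scale, and the SD over the pairs a median of 0.78, larger than the median absolute difference of 0.35.

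The mono-cultures of the same cells, measured on the same arrays, were far apart. There the same fit called 7034 genes (29.6%), 3837 higher in macrophages (16.2%) and 3197 higher in the cancer lines (13.5%). The change of the gap, which is the difference between fractions minus the difference between mono-cultures of the same line, was itself tested and passed for 8253 genes (34.8%), with 4280 positive (18.0%) and 3973 negative (16.7%). For the 3837 genes higher in mono-cultured macrophages, the median difference was 2.33 in mono-culture and 0.35 between the fractions, and for the 3197 cancer-line genes it was -2.27 and -0.07. The mono-culture values choose these sets and also enter the gap change, so part of this narrowing follows from the choice. Over the macrophage genes, the median difference between fractions was -0.72, 0.68, 0.04, 0.94 and 0.79 by co-culture, which puts CMT-U27 alone on the negative side.

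**Figure D2:**
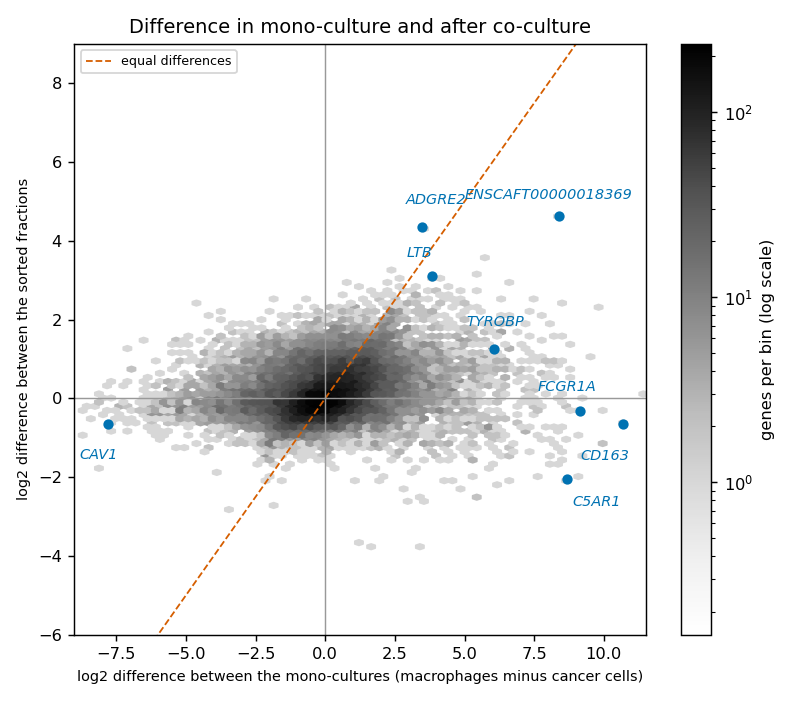
Mean log2 difference between the sorted fractions (y axis) against that between the mono-cultures (x axis) for 23734 genes, shaded by the number of genes per bin on a log scale. Most genes lie close to 0 on the y axis at every x, with CD163 at 10.68 in mono-culture and -0.66 between the fractions; ADGRE2 was not well above background in any mono-cultured line, so its x value understates the difference.

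The named genes below had the largest gap changes among those past the threshold, 5 on each side. CD163, the haemoglobin scavenger receptor, went from a mono-culture difference of 10.68 to -0.66 between the fractions (gap change -11.34 ± 2.73, SD, n = 5; adjusted p = 0.00044). C5AR1 changed by -10.71, FCGR1A by -9.45, the lysosomal protease CTSS by -8.85 and the bacterial lipoprotein receptor TLR2 by -8.41 (adjusted p = 0.0003391 to 0.0006268). On the cancer side, CAV1, the main coat protein of caveolae, went from -7.81 to -0.64 (gap change 7.17 ± 1.49; adjusted p = 0.0003708). The tight-junction gene CGN changed by 6.74, RHPN2 by 6.67, the glutamate transporter SLC1A1 by 5.72 and the collagen chaperone SERPINH1 by 5.68 (adjusted p = 0.0005354 to 0.005992). RHPN2 was not well above background on any array of mono-cultured macrophages, so that its level in the mono-cultured lines was at least 34.2-fold higher. Its difference between the fractions was positive in 5 of 5 pairs, with a mean of 1.39 (adjusted p = 0.405).

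Macrophage markers were the list in which the label should show most plainly. Of 29 markers in the list 12 were measured, with CD14 and CSF1R not among the genes tested. All 12 were higher in mono-cultured macrophages (12 called; median difference 7.58), and none was called between the fractions. Their median difference was -0.31, with 5 of 12 positive, against a median of 0.08 over all genes tested and 13245 of 23734 positive. By co-culture the number of positive markers was 1, 12, 9, 7 and 4 of 12. Of all 23734 genes 11423, 16706, 12754, 10031 and 12747 were positive, and in CMT-U309 the median over all genes was 0.28. For all 12 markers the gap was smaller after co-culture (12 called).

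CD163 had log2 levels of 12.69, 14.68, 12.08, 8.40 and 8.76 in the macrophage-labelled fractions. In the cancer-labelled fractions it had 15.66, 13.18, 11.77, 7.50 and 11.81. The groups overlapped, with the highest value of all in a cancer-labelled fraction, that of CMT-U27, and the mean difference was -0.66 ± 2.18 (SD, n = 5; adjusted p = 0.7103). A second CD163 probe gave 0.04, so the sign of this mean depended on the probe. C5AR1 stood at -3.71 to -2.81 in CMT-U27, CMT-W1 and CMT-W2, and its mean of -2.04 was the single one in the list at an unadjusted p under 0.05 (p = 0.01087, adjusted 0.4054). TYROBP, a signalling adaptor of myeloid receptors, went the other way, with levels of 15.27, 16.34, 14.72, 15.60 and 15.31 against 16.97, 14.86, 12.79, 12.08 and 14.33. It was higher in 4 of 5 macrophage-labelled fractions, all but CMT-U27, with a mean of 1.24 (adjusted p = 0.4662).

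ADGRE1, the dog counterpart of the mouse macrophage antigen F4/80, and the costimulatory molecule CD80 had the same signs as TYROBP in CMT-U27, at -2.96 and -2.13, and in CMT-W1, at 3.30 and 3.54. ADGRE1 was not well above background on either cancer-labelled array of CMT-W1, and CD80 on only 1, so these CMT-W1 differences have no exact size. The other measured markers had mean differences between -0.75 and 0.34. They were CTSS (-0.75), SLC11A1 (-0.63), FCER1G (-0.56), CD86 (-0.32), FCGR1A (-0.31), CD4 (0.10) and the lectin CD209 (0.34), each with positive and negative pairs. The signs of CD4 and CD209 changed with the scaling, and a second SLC11A1 probe gave 0.58.

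**Figure D3:**
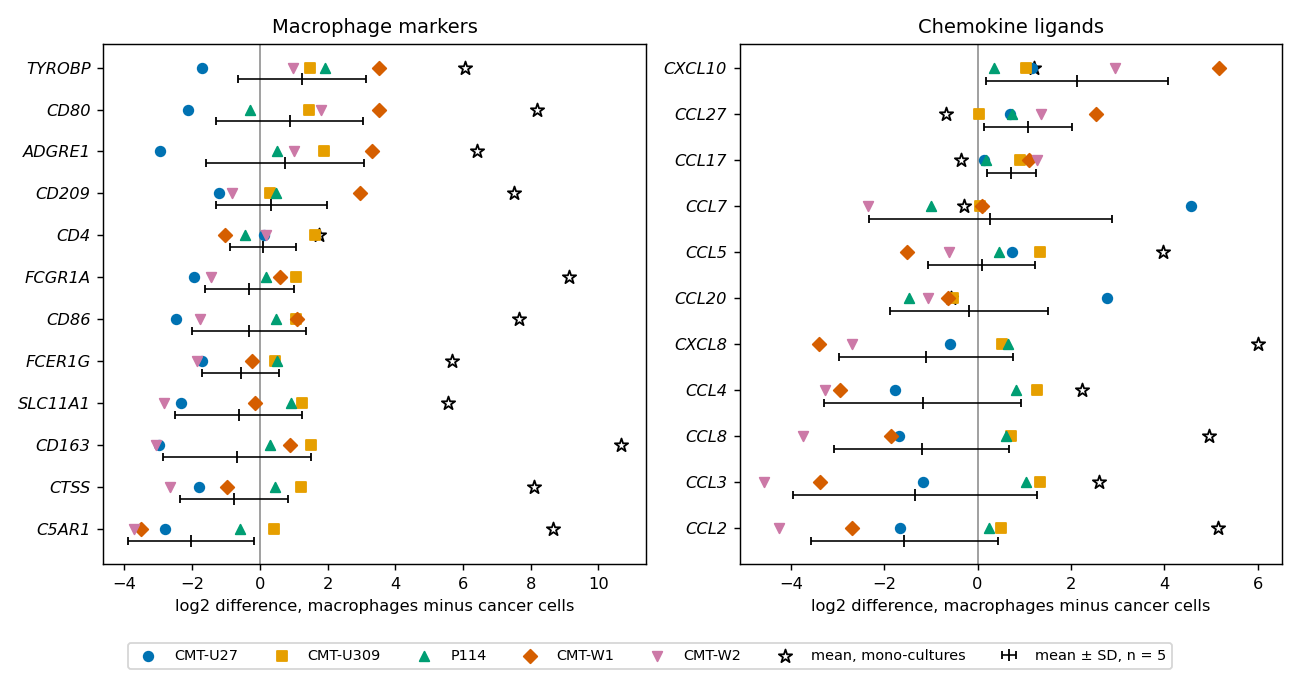
Log2 difference, macrophage-labelled minus cancer-labelled fraction, of each co-culture (coloured points), with the mean ± SD of 5 pairs (bars) and the mean difference between the mono-cultures (stars), for 12 macrophage markers and 11 chemokine ligands. Every marker's star lies to the right of all 5 of its points, and CMT-U27 lies at or near the left for most markers.

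The genes that identify the cancer cells were no better separated. Of 7 epithelial and mammary genes 3 were positive (median -0.33), and of 12 mesenchymal and matrix genes 4 (median -0.37), with none called and none at an unadjusted p under 0.05. In mono-culture 3 of the epithelial and 6 of the mesenchymal genes were called higher in the lines, as were 13.5% of all genes tested. The mesenchymal list also held 1 gene called higher in mono-cultured macrophages. CLDN3, a tight-junction protein, differed by 1.87, -0.75, 0.20, -1.60 and -1.67, higher in the macrophage-labelled fraction of CMT-U27 and lower in those of CMT-W1 and CMT-W2. The junction scaffold TJP1 had the lowest epithelial mean (-0.78), followed by CLDN3 (-0.39), MUC1 (-0.38), PGR (-0.33), OCLN (0.08) and ERBB2 (0.20), with the sign of OCLN depending on the scaling. SLPI, a secreted protease inhibitor, had 4.51 in CMT-U27, 1.22 in P114 and -0.79 to -0.07 in the other co-cultures.

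CAV1 had levels of 11.83, 13.44, 14.95, 10.29 and 10.82 in the macrophage-labelled and 10.41, 13.89, 15.02, 11.66 and 13.54 in the cancer-labelled fractions. The values overlapped, and the mean difference was -0.64 ± 1.54 (SD, n = 5; adjusted p = 0.6255). CAV1, CAV2 and SERPINH1 were all higher in the macrophage-labelled fraction of CMT-U27 (1.42 to 1.73) and all lower in those of CMT-W1 (-1.37 to -0.87) and CMT-W2 (-3.21 to -2.72). BGN, a matrix proteoglycan, had 2.17, 0.83, -0.67, -1.56 and -2.78. TIMP1 (-0.55), COL1A1 (-0.41), COL6A3 (-0.34), COL2A1 (-0.11), PDGFRB (0.10), TNC (0.11), COL1A2 (0.19) and TIMP2 (0.35) made up the rest of the list by their means. The signs of PDGFRB and TNC changed with the scaling, and the COL1A2 mean was negative for 5 other probes of that gene.

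Chemokine ligands had unlike patterns, and the 5 described first were grouped after their values were seen. CCL2, CCL3, CCL4, CCL8 and CXCL8, which attract monocytes and neutrophils, were higher in mono-cultured macrophages by 2.23 to 6.0 (all 5 called). After co-culture they were lower in the macrophage-labelled fraction in CMT-U27, CMT-W1 and CMT-W2 (0 of 5 positive in each, medians -1.66, -2.94 and -3.74) and higher in CMT-U309 and P114 (5 of 5 positive in each, medians 0.71 and 0.66). CCL2 had levels of 18.65, 19.57, 17.76, 14.45 and 14.90 in the macrophage-labelled and 20.31, 19.07, 17.52, 17.14 and 19.14 in the cancer-labelled fractions. Its mean difference of -1.57 ± 2.0 (SD, n = 5) had an unadjusted p of 0.04495 and an adjusted p of 0.4199. In CMT-W1 and CMT-W2 this direction was opposite to that of the macrophage-specific genes as a whole. The counts of 0 and 5 follow from the grouping. Over all 11 ligands 6, 10, 9, 4 and 3 were positive, and CCL5 and CCL7, which also attract monocytes, were positive in CMT-U27 (0.75 and 4.57).

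CXCL10, which draws in T cells and is induced by interferon, was higher in all 5 macrophage-labelled fractions, at 11.47, 10.11, 11.23, 11.26 and 12.64 against 10.30, 9.07, 10.88, 6.09 and 9.70. Its mean difference was 2.14 ± 1.95 (SD, n = 5; adjusted p = 0.4054), and a second probe gave 2.19. CCL27 (mean 1.07) and CCL17 (0.72) were also positive in 5 of 5 pairs at an unadjusted p under 0.05. In CMT-W1, CCL17 was not well above background on any array of either fraction, so its sign there rests on background signal. CCL27 was not well above background on the cancer-labelled arrays of CMT-W1, so its difference there has no exact size. CCL5 (0.09), CCL7 (0.27) and CCL20 (-0.18) had means near 0, although CCL7 stood at 4.57 and CCL20 at 2.77 in CMT-U27. Over the list, 5 of 11 ligands were positive, none was called, and 3 higher and 1 lower reached an unadjusted p under 0.05. Of all genes tested, 8.86% were higher and 2.92% lower at that p.

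Of the 7 chemokine receptors none was called. CCR3, the eotaxin receptor, was positive in 5 of 5 pairs, with differences of 0.75, 0.72, 0.07, 2.78 and 2.42 (mean 1.35, p = 0.0151, adjusted 0.4067). ACKR3 (-0.75), CXCR3 (-0.57), CCR1 (-0.56), CCR4 (-0.31) and CXCR2 (-0.16) had negative means with mixed pairs. CCR1 and ACKR3 had both been 5.83 higher in mono-cultured macrophages.

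Cytokines gave 9 of 18 positive differences (median -0.06) and no call. LTB, a lymphotoxin made mainly by lymphocytes and dendritic cells, stood at 10.87, 12.49, 14.14, 10.52 and 12.41 in the macrophage-labelled fractions. The cancer-labelled fractions had 8.81, 10.17, 13.19, 4.92 and 7.83. Every pair was positive, by 0.95 to 5.60, and the mean was 3.1 ± 1.92 (SD, n = 5; adjusted p = 0.3685), while the second LTB probe gave 2.05. LTB, CXCL10, TLR10, RHPN2 and CTLA4 were not well above background on either cancer-labelled array of CMT-W1. Their differences in that co-culture thus have no exact size. CCL7 was not well above background on any array of either fraction of CMT-W1, so its sign there rests on background signal. IL12B (-1.75), IL33 (-1.18) and IL6 (-0.80) also reached an unadjusted p under 0.05 with lower values in the macrophage-labelled fractions, where 2.92% of all genes tested did so. IL33 passed the filter on dim signals only through the cancer-labelled fractions, so the filter itself favoured a difference of this sign. In CMT-W1 it was not well above background on any array of either fraction. IL12B, a subunit of interleukins 12 and 23, differed by -2.23, 0.15, -0.05, -2.0 and -4.59. IL6 was negative in 5 of 5 pairs, but its second probe had 2.57 in CMT-W1 and a mean of -0.08.

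IL1A and IL1B, which start inflammation, had been 7.41 and 7.20 higher in mono-cultured macrophages and differed by 0.27 and 0.09 between the fractions. In CMT-U27 both were lower in the macrophage-labelled fraction (-1.87 and -2.17). IFNB1 and IL12B were not well above background on any macrophage-labelled array of CMT-W1 and CMT-W2, so their differences there have no exact size. The IFNB1 signal in these fractions was 4.56 and 5.08, against 8.33 and 8.90 in the cancer-labelled fractions, and in the other 3 co-cultures it was 0.37 to 0.77 higher in the macrophage-labelled fraction. IL15 (-0.91), IL10 (-0.60), LIF (-0.33), IL18 (-0.12), IL7 (-0.11), CSF2 (0.00), IL12A (0.19), IL5 (0.43), TNF (0.49), TNFSF10 (0.50) and IL1RN (0.71) made up the rest. The signs of IL1B, IL5 and CSF2 changed with the scaling or the probe.

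Toll-like receptors, which sense microbial lipids and nucleic acids, were called higher in mono-cultured macrophages for 6 of 6 genes and for none between the fractions. Their median difference was 0.51 with 5 of 6 positive. TLR1 differed by -1.63, 1.18, -0.47, 3.93 and 2.59, TLR10 by -0.86, -0.14, -1.78, 5.13 and 1.83, and TLR4 by -1.86, 0.88, 0.15, 0.53 and -1.62. No receptor of the list was positive in CMT-U27. TLR7 (0.52), TLR9 (0.51) and TLR2 (0.07) had smaller means, with the sign of TLR2 depending on the scaling.

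The list of antigen presentation genes had the highest median difference, and it was picked for description after its values were seen. Of 16 genes 14 were positive (median 1.14) and 7 reached an unadjusted p under 0.05, all higher in the macrophage-labelled fractions, where 8.86% of all genes did so. None was called. Without CMT-U27 all 16 were positive, 12 reached that p and the median was 1.64. Without CMT-W1 the median was 0.52 with 5 genes at that p, and without CMT-W2 4 genes reached it. Over all 23734 genes tested, 2400, 1576 and 788 were higher at that p when these co-cultures were left out in turn. With no block by line 1 gene of the list reached that p, against 548 higher over all genes tested. With scan day as a term, which leaves the values of the CMT-U27 pair, the median was -0.33 and 7 of 16 were positive.

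Class II molecules, which hold peptides for helper T cells, made up 6 of these 7 genes. All 6 measured class II genes had mean differences between 1.63 and 2.31 (unadjusted p under 0.05 for 6 of 6, adjusted p = 0.376 to 0.4067). They were positive for 6, 6, 3, 6 and 6 genes by co-culture, with medians of 1.10, 1.37, 0.02, 3.97 and 3.05. In CMT-U27, where the macrophage markers were reversed, class II genes were thus still higher in the macrophage-labelled fraction. HLA-DRB1, the beta chain of the DR molecule, was positive in 5 of 5 pairs, with differences of 0.97, 1.65, 0.90, 4.91 and 3.1 and a mean of 2.31 (adjusted p = 0.376). DLA-DRA, its alpha chain, had 1.15, 1.40, -0.94, 4.20 and 3.15, so that P114 went against the other 4. DLA-DMA, which loads peptides onto class II molecules, had a mean of 1.63.

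**Figure D4:**
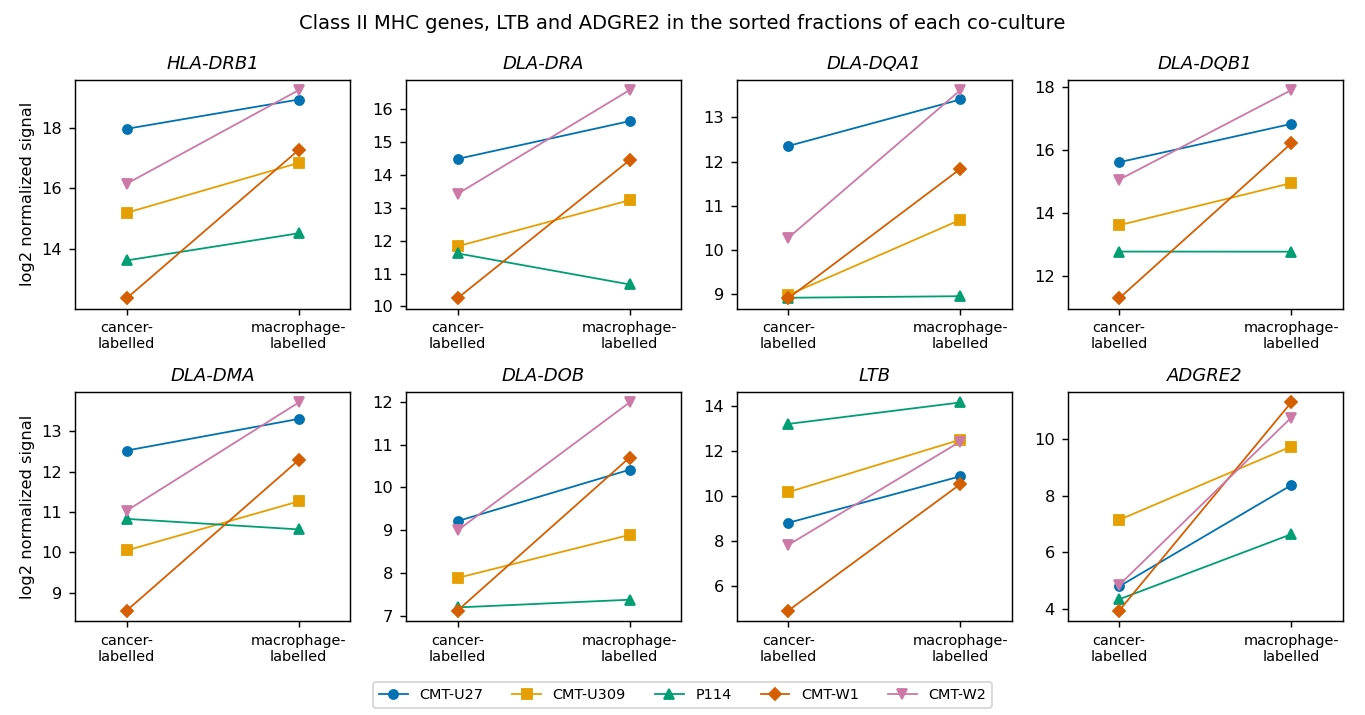
Log2 normalized signal of 6 class II MHC genes, LTB and ADGRE2 in the cancer-labelled and macrophage-labelled fraction of each co-culture; lines join the fractions of 1 co-culture and each point is the mean of a dye-swap pair. The lines go up from left to right in all 5 co-cultures for HLA-DRB1, LTB and ADGRE2, are steepest in CMT-W1 and CMT-W2, and are flat or falling in P114 for most class II genes.

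Class I genes, which most nucleated cells carry, were negative in CMT-U27 for 3 of 3 genes (DLA-64, DLA-79 and DLA88) and had means of -0.01 to 1.21. Near-identical class I and class II genes can share probe signal, and their separate values are uncertain to that extent. Among the genes that process antigens, PSMB9, a subunit of the immunoproteasome, was positive in 5 of 5 pairs (mean 0.79, adjusted p = 0.4083), while PSMB8 was -1.71 in CMT-U27 and 4.17 in CMT-W1.

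Lymphocyte markers were measured beside them, since B cells also carry class II molecules. CD3E was not among the genes tested. Of 8 measured lymphocyte markers 7 were positive (median 0.53), with 2 at an unadjusted p under 0.05, against 13245 of 23734 positive and 8.86% at that p and higher over all genes. Without CMT-U27 4 of the 8 reached that p and the median was 0.87. Of all genes tested, 10.1% were higher and 2.43% lower at that p without CMT-U27. The monocytes had been sorted for CD64, which B and T cells lack. The mean log2 level over the lymphocyte list was 7.13 to 9.05 in the macrophage-labelled and 6.91 to 7.56 in the cancer-labelled fractions. MS4A1, the B-cell antigen CD20, differed by 2.04, 1.73, -0.22, 4.01 and 2.81 (mean 2.07, adjusted p = 0.3879). CTLA4, an inhibitory receptor of T cells, differed by -0.19, 1.19, 0.66, 4.76 and 5.10 (mean 2.30, adjusted p = 0.4067), with 1.18 from its second probe. MS4A1 and CTLA4, the 2 at an unadjusted p under 0.05, passed the filter on dim signals only through the macrophage-labelled fractions. CD8A (0.19), IL2RG (-0.01) and CD40LG (0.01) were near 0. MS4A1 and CTLA4 were also higher in mono-cultured macrophages, by 2.09 and 2.22 (both called), and MS4A1 was at 6.05 to 12.01 in the macrophage-labelled fractions. Their part in the class II differences was not tested.

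Genes with a symbol and the smallest unadjusted p were named after their values were seen. ADGRE2, an adhesion receptor of myeloid cells, stood at 8.37, 9.74, 6.64, 11.29 and 10.76 in the macrophage-labelled and 4.80, 7.15, 4.35, 3.95 and 4.85 in the cancer-labelled fractions. All 5 pairs were positive, by 2.29 to 7.34, although the groups overlapped through P114 and CMT-U309 (mean 4.34, p = 0.0002758, adjusted 0.3685). It was well above background on 3 of 10 cancer-labelled arrays, and GH1, growth hormone (mean 2.37), on 2 of 10. Both passed the filter on dim signals only through the macrophage-labelled fractions, where they were high, so the filter itself favoured a difference of this sign and their p values are given as a description. Differences measured against signal at background have no exact size. SERPINA1, a protease inhibitor made by liver and myeloid cells, differed by 0.26, 2.29, 0.51, 5.41 and 3.87 (mean 2.47, adjusted p = 0.4021).

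FTH1, the heavy chain of ferritin, went in the other direction. Its levels were 18.00, 19.69, 18.55, 17.30 and 16.85 in the macrophage-labelled and 21.33, 19.85, 19.99, 20.89 and 20.79 in the cancer-labelled fractions. The groups did not overlap, and the mean difference was -2.49 ± 1.63 (SD, n = 5; adjusted p = 0.3685), with 4 further probes between -2.52 and -1.84. Ferritin heavy chains have processed copies in mammalian genomes that may share probe signal. In mono-culture FTH1 had been 3.38 higher in macrophages (adjusted p = 0.001455). LOC403631 behaved alike, with -2.59 between the fractions and 3.03 in mono-culture. Of the 122 genes without overlap, 8 had a symbol, and the others were KLK14 (lower) and GNAS, IFNA7, VWF, HAMP and TNFRSF18 (higher). KLK14 passed the filter on dim signals only through the cancer-labelled fractions and TNFRSF18 only through the macrophage-labelled fractions. The filter itself thus favoured the sign that each of these had.

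PTGS2, the inducible cyclooxygenase that makes prostaglandin precursors, followed the inflammatory chemokines. It was lower in the macrophage-labelled fraction by -1.95, -2.93 and -3.58 in CMT-U27, CMT-W1 and CMT-W2 and stood at 0.26 and -0.28 in CMT-U309 and P114. Its mean was -1.69 (p = 0.01695, adjusted 0.4067), against 6.10 in mono-culture. CTSK, a collagen-degrading cathepsin, had -2.17, 0.89, 0.04, -1.89 and -4.15. Over the 20 lysosomal genes, however, 10 were positive and the median was -0.01, with 0 of 20 positive in CMT-U27 and 20 of 20 in CMT-U309. Of all 23734 genes 11423 were positive in CMT-U27 and 16706 in CMT-U309, where the median over all genes was 0.28 and fell to 0.01 with 75th percentile scaling.

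The remaining lists held no called gene either. Of 6 interferon-stimulated genes 6 had positive means (median 0.64), with MX1 at -0.66 in CMT-U27 and 2.90 in CMT-W1. Of 9 cell cycle genes 7 were positive (median 0.52), although 6 had been called higher in the mono-cultured lines and 1 in mono-cultured macrophages. MYC, a growth-promoting transcription factor, differed by -5.69 in mono-culture and -0.08 between the fractions. The 4 ribosomal protein genes had means of 0.21 to 0.56. Of 6 hypoxia-induced genes 2 were positive (median -0.25), with ADM and the glucose transporter SLC2A1 lower at an unadjusted p under 0.05, as were 2.92% of all genes tested.

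How far the fractions stood apart depended on the co-culture. Genes at least 4-fold apart numbered 904 in CMT-U27 (3.81%), 202 in CMT-U309 (0.851%), 60 in P114 (0.253%), 4654 in CMT-W1 (19.6%) and 2408 in CMT-W2 (10.1%). The mono-cultures of the same arrays differed that far in 4853, 5026, 4630, 10354 and 6477 genes. In CMT-W1, 4375 of the genes were higher in the macrophage-labelled fraction and 279 lower. Its cancer-labelled arrays had 51.0% and 54.7% of their spots above background, and its mono-cultures also had the most genes this far apart; the part of signal strength in the count was not tested. With normexp background correction and loess within arrays, 2 steps changed together, the count for CMT-W1 was 1231 and the order of the 5 co-cultures changed only for CMT-U309 and P114.

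**Figure D5:**
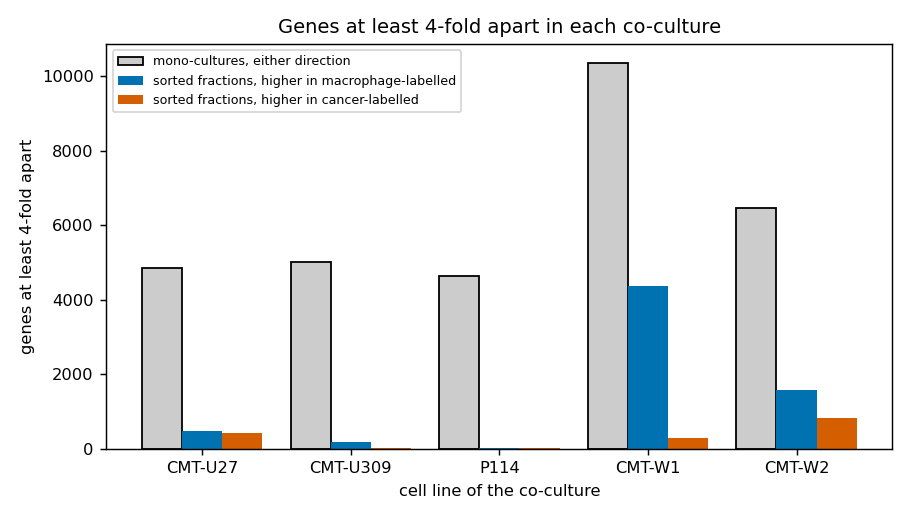
Number of genes at least 4-fold apart between the mono-cultures (grey bars) and between the sorted fractions, split by direction (blue, higher in the macrophage-labelled fraction; orange, higher in the cancer-labelled fraction), for each co-culture. CMT-W1 has 4375 and 279, and P114 has 28 and 32.

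The dye-swap pairs give only part of the technical error of each co-culture, since both arrays of a pair held the same RNAs on 1 slide. Error of sorting, RNA preparation, slide and scan day is not included. The SD of a difference from the 2 dye orientations was 0.26 to 0.40, against an SD of the differences across genes of 0.91, 0.58, 0.55, 1.66 and 1.23. Both orientations gave at least 4-fold for 657, 18, 24, 3825 and 1638 genes. In CMT-U309 one cancer-labelled array had 9828 spots marked as outliers, which were left out, and the differences of the 2 orientations correlated at 0.38 across genes, against 0.67 to 0.90 in the others. The differences of one co-culture had little in common with those of another. Their correlation across genes was -0.06 to 0.29 for 9 of 10 pairs of co-cultures and 0.63 for CMT-W1 with CMT-W2, the 2 adenocarcinoma lines.

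Genes with a symbol whose differences ranged widely across 0 show this spread. RPE65 differed by 7.81 in CMT-W1 and 3.08 in CMT-W2 and by -0.21 to 0.16 elsewhere. CCL7 was highest in CMT-U27 (4.57) and lowest in CMT-W2 (-2.35). OOEP, not well above background on the macrophage-labelled arrays of CMT-U27, was lowest there (-3.89) and highest in CMT-W2 (2.88), and TLR10 was lowest in P114 (-1.78) and highest in CMT-W1 (5.13).

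Slide and scan day moved with the labels. Cancer-labelled and macrophage-labelled arrays shared 1 slide of 5, and 4 of the 5 macrophage pairs were scanned on another day than all cancer cell pairs. The CMT-U27 macrophage arrays were the exception on both counts. With scan day as a term no gene was called (967 at an unadjusted p under 0.05), a fit that rests on the CMT-U27 pair alone. With slide as a fixed block 781 genes were called, with 1 residual degree of freedom. For the other 4 co-cultures, label and scan day cannot be told apart. The gap change is a difference of ratios within arrays, in which an effect common to both channels of an array cancels.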

How the data were processed

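The authors deposited, for each of 20 arrays, scanner output of Feature Extraction (version 10.7.3.1, submitters' notes), with linear intensity columns and a log10 ratio of Cy5 over Cy3, and a table of that ratio (signs of some arrays turned; largest difference 5.0e-06). Processed intensities, background-corrected and dye-normalized by that software, were put on the log2 scale, normalized between arrays by Aquantile in limma 3.58.1 (R 4.3.3, statmod 1.5.0) and averaged over each dye-swap pair, leaving out spots marked as outliers. A gene was shown by its brightest probe and tested if, in either population, both arrays of 3 or more of the 5 co-cultures were well above background; 23734 of 38230 features passed, 733 with a symbol, and 784 passed through the macrophage-labelled fractions only and 1012 through the cancer-labelled only. Symbols came from RefSeq genes (assembly UU_Cfam_GSD_1.0), with 1648 of 43603 probes matched to 1045 symbols; the array design is of another build and no coordinate or sequence is given.

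limma fitted the label with the cell line as a block, with Benjamini-Hochberg adjustment over all genes tested and a threshold of 0.05. The gap change was fitted against 0, n = 5. Values of p measure the spread between 5 co-cultures, and those of the mono-culture comparison and the gap change may rest on 1 macrophage mono-culture. The fractions are paired by their co-culture: their deviations from the group means correlated at 0.56, 0.75, 0.73, 0.80 and 0.36 within co-cultures and at most at 0.50 between them.

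The gene lists and members were chosen with earlier results of these data known. Named genes were every measured member of 7 lists (macrophage, epithelial and mesenchymal markers, chemokine ligands and receptors, cytokines, Toll-like receptors), the 5 largest gap changes each way and the 5 widest ranges of sign; called genes had no symbol. Some of these named genes are not reported here. Others are said to be chosen after their values were seen, as are all genes of the other lists (among them MHC, lymphocyte, lysosomal, interferon, cell cycle, ribosomal, hypoxia, prostaglandin, protease and iron genes). Scripts were tested on simulated data. Figures were drawn with Python 3.11.15 (pandas 2.3.3, numpy 2.4.6, matplotlib 3.10.9). The number of arrays limits the precision.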

Additional observations from a re-analysis of the deposited data

Results flagged for a closer look

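Among 125 values tested over the 5 co-cultures, 4 had an extreme far from the other 4 (a gap of more than 0.71 of the range). Chance flags about 1 group in 20, which is more than were flagged here. CCL20 stood at 2.77 in CMT-U27 and at -1.46 to -0.52 in the others. COL1A2 stood at -1.20 in CMT-W2 and at 0.32 to 0.76 in the others. TNFSF10, a ligand that induces cell death, stood at 2.89 in CMT-W1 and at -0.49 to 0.39 in the others. Macrophage-specific genes were at 78.4% of the mono-cultured level in the cancer-labelled fraction of CMT-U27 and at 5.27% to 19.9% in the other cancer-labelled fractions.

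The difference between co-culture and mono-culture was itself unequal between the macrophage-labelled and the cancer-labelled fractions, by a test of the gap change, for 8253 genes. The named genes at the ends of that test had gap changes of 7.17 (CAV1), 6.74 (CGN), 6.67 (RHPN2), 5.72 (SLC1A1), 5.68 (SERPINH1), -11.34 (CD163), -10.71 (C5AR1), -9.45 (FCGR1A), -8.85 (CTSS) and -8.41 (TLR2). RHPN2 was not well above background in mono-cultured macrophages. A second CGN probe had a difference between the fractions of 0.71 instead of 1.46, with -0.83 in CMT-W1.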

How the results depend on the processing

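The call of 1 gene between the fractions was made with quantile normalization, normexp, other filters, single dye orientations, the mean of probes and trend and robust moderation, and without each co-culture in turn (1 to 1), each time with ENSCAFT00000018369 among the called genes. It became 3 with 75th percentile scaling, 2 with outlier spots kept, and 2 with every probe on its own. The methods' t-test called 138 at p 0.01 and 2 after adjustment. Without the replicate block by line 2 were called. With 20 arrays and the dye-swap pair as a random block 31 were called (26 higher, 5 lower; ADGRE2 and LTB among them), and with the slide as a random block 2193 (1896 higher, 297 lower); the latter treats the arrays of a pair as separate samples. On 10 pair means the slide as a random block gave 1. Slide as a fixed block gave 781 and scan day as a fixed block 0, where that gene had 5.08 (adjusted p = 0.6208). The fit with scan day, that with slide as a random block on the pair means, the alternatives for the 4-fold counts and the likeness, the quantile-normalized gap change and the list counts by setting were chosen after seeing the data. Genes at an unadjusted p under 0.05 ranged from 1042 (without CMT-W2) to 2976 when 1 co-culture was left out. No gene with a symbol was called in the main fit, so a change of its sign counted as a reversal only where another setting called it. There was no such reversal, while signs of uncalled genes did change, as given above.

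Mono-culture calls ranged from 4038 (without CMT-W2) to 8066, and gap changes from 6017 to 7078, when 1 co-culture was left out. The median difference of cancer-specific genes turned to -0.11 in CMT-U309 and -0.15 in P114 under quantile normalization. The lead of mono-cultured macrophages over the line in correlation with the macrophage-labelled fraction turned to -0.0062 (CMT-W1, quantile), -0.026 (CMT-W1, normexp) and -0.0142 (CMT-W2, normexp). Genes 4-fold apart under normexp were 206, 5, 19, 1231 and 673; in CMT-U309 they were 73 with 75th percentile scaling and 367 with outlier spots kept. The cause was not tested.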
